A study of Mus musculus with 14 samples.

Results

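Regulatory T cells (Tregs) restrain other immune cells in part through what they secrete or display, and 10 genes of this kind were examined: Il10, Ebi3, Il12a, Tgfb1, Lrrc32, Itgb8, Fgl2, Lgals1, Il1rn and Areg. They were chosen by function, with earlier results of these data known. Their gene IDs were looked up among the 53801 genes listed for Foxp3-YFP-cre mice and the 55487 listed for the inducible line. All 10 were listed in both. Intestinal Tregs rely on IL-10 in particular, which acts on myeloid and T cells to hold back inflammation. TGF-beta is made as a latent complex that the anchor GARP (Lrrc32) holds at the cell surface and that the integrin of Itgav and Itgb8 opens. Amphiregulin (Areg), a ligand of the EGF receptor, serves tissue repair, while the IL-1 receptor antagonist (Il1rn) blocks IL-1 at its receptor.

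RNA-seq was performed on 14 libraries of sorted mouse Tregs to ask how gene expression depends on JunB, a transcription factor of the AP-1 family, in Peyer's patches (PP) and colon. PP Tregs came from 2 JunB F/+ (HET) and 2 JunB F/F (KO) untreated male mice with Foxp3YFPcre, sorted as CD4+ Foxp3(YFP)+ cells within a narrower gate. CD25- PP Tregs came from 2 iHET (JunB F/+) and 2 iKO (JunB F/F) mice and colonic lamina propria Tregs from 3 iHET and 3 iKO mice, all with Foxp3ERT2cre and Rosa26-tdTomato, in which tamoxifen lets Cre act and tdTomato marks the cells where it has acted. These mice, number 1 of each group male and the others female, received 3 doses of 8 mg tamoxifen by gavage on days 0, 1 and 3 and were analyzed on day 7. The colonic sort (TCRb+ CD4+ Foxp3(EGFP)+ tdTomato+) was the same as that of CD25- PP Tregs except that it had no gate on CD25. All mice were young adults. Controls thus carried Cre and 1 floxed Junb allele, both Cre lines are driven by the Foxp3 locus, and the study notes unintended germline deletion in the Foxp3-YFP-cre line. Nothing in the labels states that the libraries of the organs came from different mice, and p-values measure only the spread between these samples.

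Libraries held 26274861 to 35508709 counts. Values per gene are counts scaled to library size (CPM) after TMM normalization, done separately for the 4 Foxp3-YFP-cre and the 10 inducible libraries, and levels of different genes are compared as CPM per kilobase of exon (FPKM). The targeted gene Junb had a mean of 5040.5 ± 407 CPM (SD, n = 2) for HET against 583 ± 31.9 CPM for KO PP Tregs, 4865 ± 965 and 901 ± 14.3 CPM (n = 2) in iHET and iKO CD25- PP Tregs, and 7616 ± 808 and 1011 ± 17.9 CPM (n = 3) in iHET and iKO colonic Tregs. The summed level of 8 genes of Treg identity lay between 5476 and 8721 CPM without TMM in every library. Il2ra, which encodes CD25, averaged 197 ± 16.9 CPM (n = 2) in iHET and 224 ± 21.7 CPM in iKO CD25- PP Tregs, against 644 ± 97.8 CPM and 692 ± 56.7 CPM (n = 3) in colonic Tregs. Markers of other cell types were present. The sum of 9 epithelial genes was 129 to 156 CPM in HET and 49.9 to 58.5 CPM in KO PP Tregs, where 6 of the 9 were lower, and reached 1751 CPM in 1 colonic iKO library. The sum of 10 myeloid genes was 135 to 179 CPM in CD25- PP and 167 to 400.3 CPM in colonic libraries, and the group means of S100a8 and S100a9 were under the level of 3 counts in 5 of the 6 groups.

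Promoter sequences were looked up because JunB binds AP-1 sites. RefSeq windows on GRCm38.p6, from 250 bases before to 50 after a start of transcription, were found for 7 of the 10 genes (Areg, Ebi3, Fgl2, Il12a, Il1rn, Itgb8 and Tgfb1), and 3 motifs were searched on both strands: TGANTCA (AP-1), TGACGTCA (CRE) and TTCNNNGAA (STAT). These motifs do not contain each other. TGANTCA was present in 7.81% of all 32851 windows, TGACGTCA in 1.79% and TTCNNNGAA in 8.30%. Among the 10 genes, TGANTCA was found in Fgl2 and in 1 of the 3 Il1rn windows, TGACGTCA in Areg and TTCNNNGAA in Fgl2. The 3 stretches that follow run 5′ to 3′ on the + strand and are given because they hold every match found, with the matching letters in capitals. They cover chr5:91139479-91139598 for Areg, chr2:24336660-24336779 for Il1rn and chr5:21372634-21372663 for Fgl2.
Areg: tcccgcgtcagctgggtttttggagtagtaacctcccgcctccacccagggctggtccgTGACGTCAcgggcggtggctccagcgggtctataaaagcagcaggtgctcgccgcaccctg
Il1rn: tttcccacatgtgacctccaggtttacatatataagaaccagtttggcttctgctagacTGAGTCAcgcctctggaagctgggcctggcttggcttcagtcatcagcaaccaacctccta
Fgl2: cttTTCTGGGAActcagaacgccTGAGTCA
The match in Areg began 61 bases before the RefSeq start of transcription and that in Il1rn 141 bases before it. In Fgl2 the STAT and AP-1 letters began 36 and 16 bases before the RefSeq start. The annotation used for gene positions starts Fgl2 at 21372642, so that the AP-1 letters lie inside the gene as annotated there. A match of letters is a description and not a bound site.

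Per length, Areg had the highest mean and Il12a the lowest in each of the 6 groups. Areg averaged 355 ± 39.8 FPKM (SD, n = 2) in HET PP Tregs, 227 ± 209 FPKM (n = 2) in iHET CD25- PP Tregs and 477 ± 133 FPKM (n = 3) in iHET colonic Tregs. Il10 came next in PP Tregs, with 336 ± 7.09 FPKM in HET and 431 ± 19.8 FPKM in KO, and its range overlapped that of Areg in both. Lrrc32 followed there, at 202 ± 5.30 FPKM in HET and 282 ± 29.2 FPKM in KO PP Tregs, below every Il10 value of the same group. Tgfb1, Fgl2, Lgals1 and Ebi3 formed a middle range from 32.2 to 75.1 FPKM in the group means of PP Tregs, and among neighbors of that order Tgfb1 and Fgl2 as well as Fgl2 and Lgals1 overlapped in HET. Itgb8 and Il1rn stood at the low end, with Itgb8 above Il1rn in HET (11.5 ± 1.32 against 5.33 ± 0.00571 FPKM) and below it in KO (6.25 ± 0.0339 against 11.2 ± 5.94 FPKM), without overlap in either.

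In colonic Tregs the order was different in a few places. Lgals1 was second, with 392 ± 253 FPKM (SD, n = 3) in iHET and 261 ± 18.9 FPKM in iKO, and overlapped Il10 (243 ± 14.4 and 215 ± 45.1 FPKM) in both. Fgl2 averaged 153 ± 20.2 FPKM in iHET and 107 ± 16.8 FPKM in iKO, next to Lrrc32 with 111 ± 27.2 and 119 ± 10.9 FPKM, and the ranges of this pair overlapped as well. Itgb8 averaged 3.34 ± 0.812 and 3.17 ± 0.821 FPKM and was the lowest after Il12a. Levels per length depend on the annotated exons, since all exons of a gene were counted as its length.

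**Figure D1:**
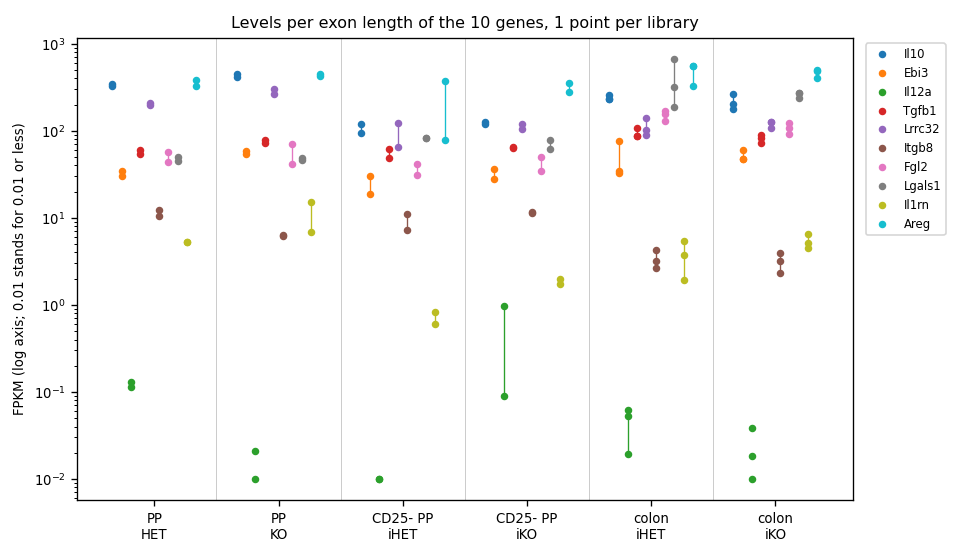
FPKM (log axis) of the 10 genes in each library, by group, with 1 point per library, a line from the lowest to the highest value and values of 0.01 or less drawn at 0.01. Areg has the highest group mean in all 6 groups, Lgals1 and Fgl2 lie higher in the colon, Itgb8 lies lower there, and Il12a stays under 1 FPKM.

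The comparison of KO with HET PP Tregs asks how these genes differ with constitutive loss of JunB. By flow cytometry the study found follicular Tregs nearly absent and CD25- Tregs reduced in KO mice, whose CD4+ T cells also made more cytokines. The sorted PP Tregs thus differed in their mix of subsets, and the part of this in the values was not tested. Ebi3 and Lrrc32 were higher and Itgb8 was lower in KO PP Tregs, while Il10, Tgfb1, Areg, Il1rn, Fgl2 and Lgals1 did not pass the false discovery rate (FDR) of 0.05 in edgeR's quasi-likelihood test. Of the 9 members tested, 3 were called, 2 higher and 1 lower, where 3.35% of all 12224 genes tested were called, 0.990% higher and 2.36% lower. The median log2 fold change of the 9 was 0.36 against 0.0030 over all genes. For 6 of the 9 the KO values lay entirely above the HET values and for Itgb8 entirely below, a separation shown by 21.8% of all genes in each direction. The exact test of edgeR, which the study used, called 6 of the 9, 5 higher and 1 lower, where it called 5.64% of all genes, 1.91% higher and 3.73% lower.

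Il10 (ENSMUSG00000016529.5, chromosome 1 of GRCm38, 131019845 to 131024974), the cytokine IL-10 itself, had 433 and 446 CPM in the HET libraries and 583 and 546 CPM in the KO libraries. Both KO values were higher by a log2 fold change of 0.36 (SE, standard error, 0.0816), and edgeR's adjusted p of 0.0602 did not pass the threshold. With the exact test of edgeR its adjusted p was 0.0176, and with DESeq2 it was 0.00109. Ebi3 (ENSMUSG00000003206, chromosome 17, 55952640 to 55957022) encodes the subunit shared by the cytokines IL-27 and IL-35, and it shares 270 of 1154 exon bases with Gm16712 on the other strand, so that reads there cannot be told apart without strand. Ebi3 had 39.9 and 34.5 CPM in the HET libraries and 68.3 and 62.1 CPM in the KO libraries. The groups did not overlap, and Ebi3 was higher in KO by 0.81 on the log2 scale (SE 0.118, adjusted p of edgeR 0.0133). Without HET library 1 or HET library 2 its adjusted p was 0.0741 and 0.0861.

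Il12a (ENSMUSG00000027776.12, chromosome 3, 68690644 to 68698547), the partner of Ebi3 in IL-35, had 6 counts in each HET library of PP Tregs, 1 count in KO library 1 and 0 counts in KO library 2. In each comparison Il12a fell under the filter on low counts, so that it was not among the genes tested with the filter. A count of 0 allows up to 3 counts, which in the 14 libraries is 0.0899 to 0.111 CPM. Ebi3 was thus detected in every library, while Il12a had 6 counts or fewer in 13 of the 14.

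Of the genes around TGF-beta, Lrrc32 rose and Itgb8 fell in KO PP Tregs. Tgfb1 (ENSMUSG00000002603.15, chromosome 7, 25687002 to 25705077) had 276 and 307 CPM in the HET libraries and 365 and 392 CPM in the KO libraries, a difference of 0.38 on the log2 scale (SE 0.0876, adjusted p of edgeR 0.0638) that did not pass the threshold. The exact test gave an adjusted p of 0.0175 and DESeq2 one of 0.00455. Lrrc32 (ENSMUSG00000090958.2, chromosome 7, 98489283 to 98502181), the surface anchor GARP, had 929.9 and 965 CPM in the HET libraries and 1227 and 1420.5 CPM in the KO libraries. Each KO library was above each HET library, with a difference of 0.48 on the log2 scale (SE 0.101, adjusted p of edgeR 0.0441). Lrrc32 was near the threshold, and its adjusted p was 0.0527 with a filter of 10 counts in every library and 0.228, 0.140 and 0.167 without HET library 1, HET library 2 or KO library 2.

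Itgb8 (ENSMUSG00000025321.14, chromosome 12, 119158022 to 119238802), the integrin chain that frees active TGF-beta, had 117 and 138 CPM in the HET libraries and 68.9 and 69.4 CPM in the KO libraries. It fell by 0.88 on the log2 scale (SE 0.0979, edgeR adjusted p = 0.00531), that is to 0.543 times the HET level. It was called in each of the 7 alternative settings. In the 4 fits with 1 library left out its log2 fold change was -0.99 to -0.76. The ratio of Itgb8 to Tgfb1, both in FPKM, was 0.194 and 0.205 in HET and 0.0861 and 0.0807 in KO PP Tregs, whereas that of Lrrc32 to Tgfb1 was 3.63 and 3.39 in HET and 3.61 and 3.89 in KO.

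Of the other secreted factors, Areg (ENSMUSG00000029378.5, chromosome 5, 91139599 to 91148432) had 398 and 466 CPM in the HET libraries and 516 and 545 CPM in the KO libraries, a difference of 0.30 on the log2 scale (SE 0.0980, adjusted p of edgeR 0.193). Il1rn (ENSMUSG00000026981.15, chromosome 2, 24336853 to 24351494) had 29.5 and 29.5 CPM in the HET libraries and 38.5 and 85.0 CPM in the KO libraries. The KO values were both higher but far from each other, with a log2 fold change of 1.07 (SE 0.302). Its adjusted p was 0.128 in edgeR's quasi-likelihood test, 0.0209 in its exact test and 0.394 in DESeq2. KO library 2, with the high Il1rn value, had the lowest myeloid sum of the 4 libraries, 173 CPM, against 222 CPM in KO library 1, and the part of myeloid cells was not tested. Without KO library 2 the log2 fold change of Il1rn was 0.38, and without KO library 1 it was 1.53, each with 1 KO library left. Fgl2 (ENSMUSG00000039899.5, chromosome 5, 21372642 to 21378374), a soluble fibrinogen-like protein that acts on antigen-presenting cells, had 168 and 219 CPM in the HET libraries and 269.6 and 155 CPM in the KO libraries, which overlapped. Lgals1 (ENSMUSG00000068220.6, chromosome 15, 78926725 to 78930465), the sugar-binding galectin-1, had 44.7 and 40.4 CPM in the HET libraries and 41.4 and 43.6 CPM in the KO libraries. Its log2 fold change had a 95% confidence interval from -0.25 to 0.25.

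Foxp3 and Il2ra, 2 of the 8 genes of Treg identity, were higher in KO PP Tregs as well, by log2 fold changes of 0.51 (edgeR adjusted p = 0.0167) and 0.73 (0.0199), and the sum of this list was 7437 and 7806 CPM for HET and 8384 and 8721 CPM for KO. Its part in the higher Ebi3 and Lrrc32 levels was not tested, and neither was that of other cell types. Beside the epithelial sum, the sum of 5 mast cell genes was lower in KO (16.5 and 18.1 against 2.10 and 3.18 CPM). Only Kit of these genes was tested, and it was called lower. Fcer1a, Mcpt1 and Mcpt2 had at most 3 counts in any HET or KO library. The sum of CD8 and NK cell genes was lower as well (51.1 and 49.2 against 31.4 and 35.0 CPM), with 1 of 3 called lower. In sorted bulk samples, fewer cells of a type and less RNA per cell cannot be told apart.

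**Figure D2:**
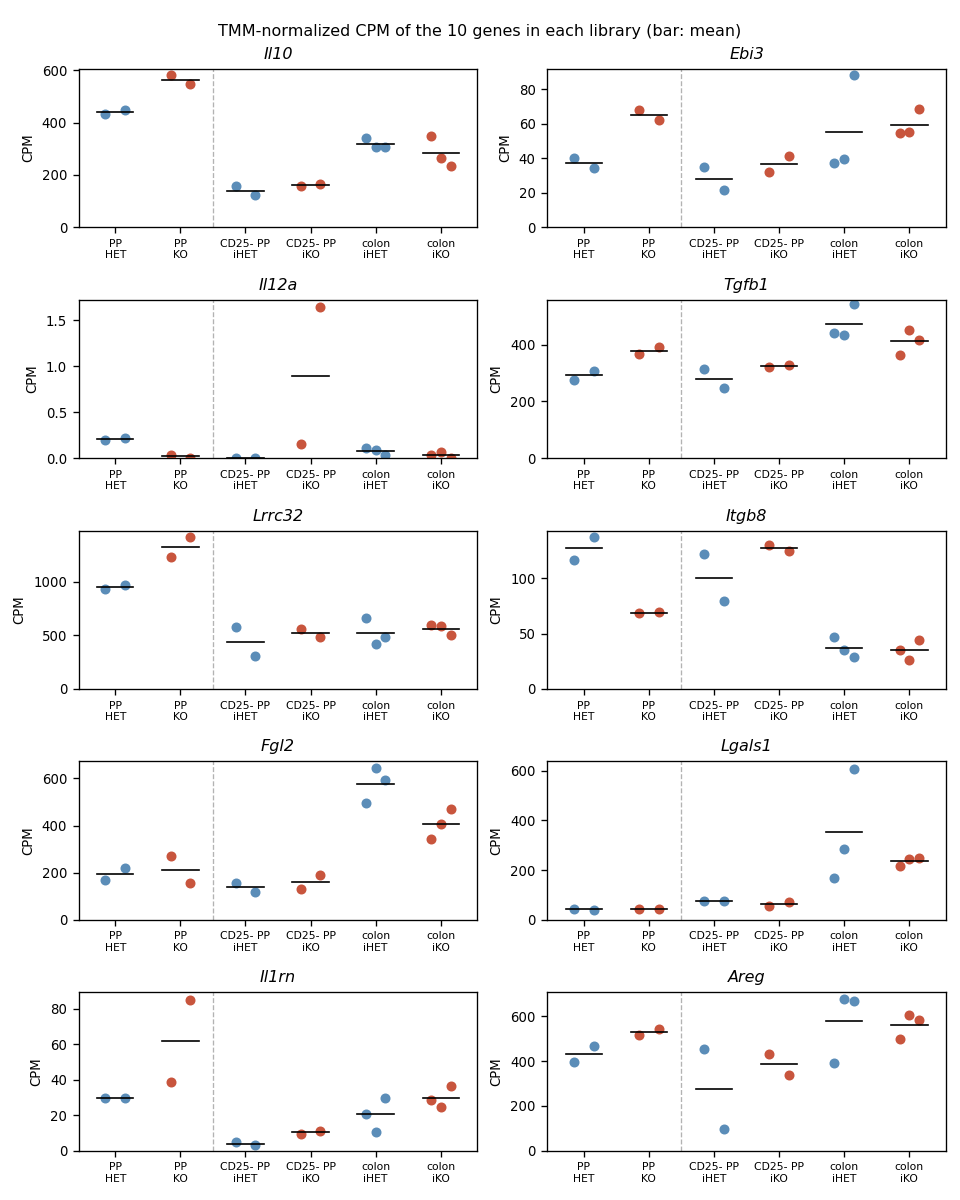
TMM-normalized CPM of each of the 10 genes by library, in 6 groups, with 1 point per library and a bar at the group mean, controls in blue and JunB-deleted groups in red, and a dashed line between the separately normalized mouse lines. Itgb8 falls from 117 and 138 CPM to 68.9 and 69.4 CPM in KO PP Tregs and is lower still in the colon, and single libraries stand apart for Areg (CD25- PP iHET 2), Lgals1 and Ebi3 (colonic iHET 3), Il1rn (PP KO 2) and Il12a (CD25- PP iKO 2).

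In the 8 lists of related genes, 71 of 94 genes were tested in PP Tregs. Of these, 7 were higher and 7 lower in KO, against 0.990% and 2.36% of all genes tested. Of 14 tested genes for IL-10 and IL-12 family cytokines, receptors and signaling, 3 were higher and 1 was lower (median log2 fold change 0.04). The ligand-binding IL-10 receptor chain Il10ra rose by a log2 fold change of 0.73 (edgeR adjusted p = 0.0132), Socs3, a feedback inhibitor of STAT3 signaling, by 0.53 (0.0162) and Il27ra by 0.41 (0.0443), while Il6st, the shared receptor chain gp130, fell by 0.60 (0.0147). Of 12 transcription factors known to act on Il10, 3 were higher and none lower (median 0.22): Rbpj by 0.69 (edgeR adjusted p = 0.0441), Bhlhe40, a repressor of Il10, by 0.45 (0.0460) and Prdm1, which encodes Blimp-1, by 0.38 (0.0441).

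No gene of 9 tested for TGF-beta activation and storage was called (median 0.09). Itgav, the partner chain of Itgb8, which is named after its values were seen, had a log2 fold change of -0.35 (edgeR adjusted p = 0.174). Of 11 TGF-beta receptor and signaling genes only Ski, an inhibitor of SMAD proteins, was called, with a rise of 0.43 (edgeR adjusted p = 0.0348). In the IL-1 family, 2 of 8 tested genes were lower (median -0.15), the cytokine Il1b with a log2 fold change of -2.51 (edgeR adjusted p = 0.0201) and the decoy receptor Il1r2 with -1.47 (0.0187). Mean levels of Il1b were 10.5 ± 5.66 CPM (SD, n = 2) for HET against 1.81 ± 0.429 CPM for KO PP Tregs, and those of Il1r2 210.3 ± 27.6 and 75.8 ± 31.8 CPM. Il1r2 and Il1rn, which both keep IL-1 from signaling, had log2 fold changes of opposite sign, of which only that of Il1r2 passed the test.

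Of the 7 other galectin genes tested, 3 were lower in KO PP Tregs (median -0.25) and none higher. These were Lgals2 with a log2 fold change of -3.61 (edgeR adjusted p = 0.00737), Lgals3 with -1.31 (0.0398) and Lgals4 with -0.96 (0.0205). Lgals2 and Lgals4 are known from intestinal epithelium, whose marker sum fell in the same libraries, and its part was not tested. Among 3 tested genes of the list related to FGL2, the inhibitory receptor Tigit was lower, with -0.50 (edgeR adjusted p = 0.0132). Of 7 tested genes of EGF family ligands, receptors and shedding none was called (median 0.03).

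The comparison of iKO with iHET CD25- PP Tregs asks what loss of JunB does within a week in Tregs that lack surface CD25. None of the 9 members tested was called, as was none of 17079 genes (0%) in edgeR's quasi-likelihood test, Junb included (adjusted p = 0.0940). Across all genes, 618 (3.62%) had an unadjusted p under 0.05, as had 1 member, the exact test called 43 genes (0.252%; 0.0293% higher and 0.222% lower) and no member, and DESeq2 called 35. The median log2 fold change of the members was 0.24 against -0.0023 over all genes, and 8 of the 9 values were positive. Both iKO libraries were above both iHET libraries for 4 members (Il10, Tgfb1, Itgb8 and Il1rn) and below them for Lgals1, which 16.5% and 15.6% of all genes showed.

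Il1rn was the member with the lowest p in CD25- PP Tregs. It was at 4.61 and 3.36 CPM in iHET and at 9.58 and 10.9 CPM in iKO libraries, without overlap. The log2 fold change was 1.35 (SE 0.272) with a p of 0.00235 in edgeR's quasi-likelihood test before adjustment and 0.999 after it, while the adjusted p was 0.0675 in the exact test and 0.0553 in DESeq2. Il10 was at 156 and 124 CPM in iHET and 158 and 165.5 CPM in iKO libraries, with a 95% confidence interval of its log2 fold change from -0.15 to 0.56. Tgfb1 was at 312 and 248 CPM in iHET and 319.5 and 329.5 CPM in iKO libraries, with an interval from -0.16 to 0.57.

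Itgb8 was at 122 and 79.5 CPM in iHET and at 130.0 and 125 CPM in iKO CD25- PP Tregs. Both iKO libraries were higher than both iHET libraries, the reverse of what was seen in PP Tregs, but the log2 fold change of 0.33 (95% confidence interval -0.17 to 0.84, edgeR adjusted p = 0.999) did not pass the test. Lrrc32 (575 and 306.5 against 561 and 486 CPM), Ebi3 (34.8 and 21.7 against 32.0 and 41.6 CPM) and Fgl2 (156 and 119 against 130.0 and 190.5 CPM) overlapped between iHET and iKO libraries.

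Areg was at 455 and 95.8 CPM in iHET and 434 and 338 CPM in iKO libraries, so that a single iHET library was far below the other 3. Its log2 fold change of 0.48 had an SE of 0.624. Without that library the value was -0.25 and without iHET library 1 it was 2.01, each with 1 iHET library left. The low Areg library was also the lowest of the 4 for Lrrc32, Itgb8, Tgfb1, Il10, Ebi3, Fgl2 and Il1rn. Its sum of 8 genes of Treg identity was 5476 CPM against 5870 to 6088 CPM in the other 3 libraries. Lgals1 was at 75.4 and 74.0 CPM in iHET and 56.4 and 71.6 CPM in iKO libraries, with a log2 fold change of -0.23 (edgeR adjusted p = 0.999).

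Il12a had 0 and 0 counts in iHET and 5 and 45 counts in iKO CD25- PP Tregs. The 45 counts of iKO library 2 (1.64 CPM) were the most in any library. Only 1 library passed 1 CPM, so the filter left Il12a out. Of the 82 genes tested in the related lists, none was called in this comparison.

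The comparison of iKO with iHET colonic Tregs included the replicate number in the fit to stand for cage. None of the 9 members was called, and of 16313 genes only Junb was (0.00613%), lower in iKO. The median log2 fold change of the members was -0.09 against 0.0048 over all genes, with 3 positive and 6 negative values. An unadjusted p under 0.05 was reached by 2 members and by 632 genes (3.87%). The study used a likelihood ratio test with cage. Run here with the replicate number in place of cage, that test called 25 genes (0.153%, with 0.0429% higher and 0.110% lower) and no member.

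Fgl2 was at 495, 646 and 594 CPM in iHET and at 344, 405 and 471 CPM in iKO colonic Tregs. It was the only member whose groups did not overlap, a separation that 4.49% of all genes showed in this direction and 3.86% in the other. Fgl2 had a log2 fold change of -0.52 (SE 0.109), a p of 0.00414 in edgeR's quasi-likelihood test and an adjusted p of 0.947. DESeq2 gave an adjusted p of 0.00823 and the likelihood ratio test 0.159, and without single libraries the log2 fold change ranged from -0.60 to -0.42.

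Il1rn was at 20.6, 10.7 and 29.9 CPM in iHET and at 28.2, 24.7 and 36.5 CPM in iKO colonic Tregs. The iKO library was the higher within each of the 3 numbers, although the groups overlapped, and the log2 fold change of 0.64 (SE 0.221) had a p of 0.0323 and an adjusted p of 0.947 in edgeR. Il1rn thus had a positive estimate in PP, CD25- PP and colonic Tregs and passed the FDR in none of them in the main quasi-likelihood fit. Of the alternative settings, 3 of 7 called it in PP, 1 of 8 in CD25- PP and 0 of 8 in colonic Tregs. In PP Tregs it passed in the exact test but not in DESeq2 (adjusted p = 0.394). Without the filter on low counts, which called 1305 genes in PP and 232 in CD25- PP Tregs, its adjusted p of edgeR was 1.5e-14 and 0.00847. Il10 was at 339.7, 307 and 307 CPM in iHET and 348, 264 and 235 CPM in iKO libraries, with a 95% confidence interval of its log2 fold change from -0.49 to 0.10. Tgfb1 (439, 434 and 543 against 365, 451 and 417 CPM) overlapped between iHET and iKO, with an interval from -0.52 to 0.11.

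Lgals1 was at 167, 286 and 609 CPM in iHET and at 216, 244 and 247 CPM in iKO colonic Tregs. The log2 fold change of -0.39 was 0.07 without iHET library 3, and also 0.07 without iKO library 3. Leaving out either one takes replicate number 3 out of the contrast. Library 3 of iHET was the highest of the 6 for Ebi3, at 88.7 CPM against 37.5 to 68.8 CPM, and for Tgfb1. It also had the highest myeloid sum, 400.3 CPM against 167 to 306 CPM. The part of myeloid cells in these values was not tested. Lrrc32 (661, 415 and 480.4 against 594, 584 and 501 CPM), Itgb8 (46.7, 35.1 and 29.1 against 35.3, 25.9 and 44.1 CPM) and Areg (393, 678 and 667 against 497, 607 and 584 CPM) overlapped between iHET and iKO. Il12a had 3, 3 and 1 counts in iHET and 1, 2 and 0 counts in iKO libraries. Of the 86 genes tested in the related lists none was called.

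**Figure D3:**
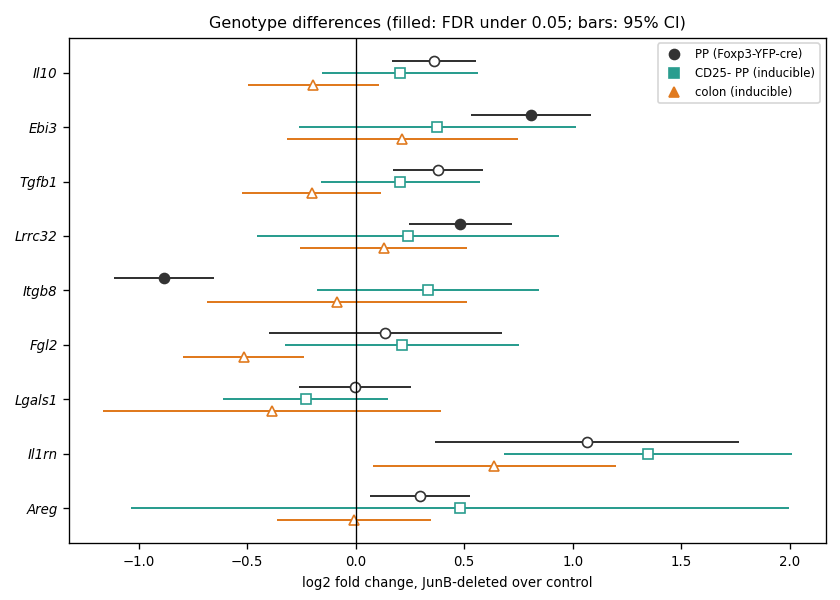
Log2 fold change of the 9 tested genes between JunB-deleted and control Tregs in PP (circles), CD25- PP (squares) and colon (triangles), with bars for the 95% confidence interval and filled symbols for an FDR under 0.05. Filled symbols appear in PP for Ebi3 (0.81), Lrrc32 (0.48) and Itgb8 (-0.88), and the estimates of Il1rn lie right of 0 in all 3 comparisons.

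The difference between colonic and CD25- PP Tregs was tested in a fit of the 10 inducible libraries with 4 groups, and since the colonic sort had no gate on CD25, organ and CD25 gate cannot be told apart. The comparisons of organ use the same libraries as those of genotype and are not independent of them. In iHET mice, Il10, Tgfb1, Fgl2, Lgals1 and Il1rn were higher and Itgb8 was lower in colonic than in CD25- PP Tregs, and in iKO mice Il10, Fgl2 and Lgals1 were higher and Itgb8 lower. These are 6 of 9 members in iHET, where 6.45% of 18626 genes were called (4.22% higher and 2.23% lower), and 4 of 9 in iKO, where 4.07% were called (2.48% higher and 1.59% lower). The median log2 fold change of the members was 1.07 in iHET and 0.69 in iKO, against -0.0086 and 0.01 over all genes. Groups did not overlap for 6 members higher and 1 lower in iHET, against 18.8% and 19.9% of all genes, and for 7 higher and 1 lower in iKO, against 23.0% and 21.0%. An unadjusted p under 0.05 was reached by 7 members in iHET (22.3% of all genes) and 5 in iKO (20.9%).

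Fgl2 averaged 138 ± 26.4 CPM (SD, n = 2) in iHET CD25- PP and 578 ± 76.5 CPM (n = 3) in iHET colonic Tregs, and 160.2 ± 42.8 and 406 ± 63.5 CPM in the iKO groups. No colonic library overlapped a CD25- PP library, and the log2 fold change was 2.07 in iHET (SE 0.209, edgeR adjusted p = 0.00164) and 1.34 in iKO (SE 0.208, edgeR adjusted p = 0.0126). In iHET Fgl2 was called in all 6 alternative settings and without any single library. In iKO it was called in 5 of the 6 settings, with an edgeR adjusted p of 0.0680 under the block by genotype and replicate number, and 0.104 without CD25- PP iKO library 1.

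Lgals1 averaged 74.7 ± 0.987 CPM (SD, n = 2) in iHET CD25- PP and 354 ± 229 CPM (n = 3) in iHET colonic Tregs. Its lowest colonic library, at 167 CPM, was still above the highest CD25- PP library, and the log2 fold change was 2.24 (SE 0.406, edgeR adjusted p = 0.0185). In iKO the means were 64.0 ± 10.7 and 236 ± 17.0 CPM and the log2 fold change was 1.88 (SE 0.406, edgeR adjusted p = 0.0444). Without 1 of the CD25- PP iHET libraries the adjusted p in iHET was 0.0914 or 0.172, and in iKO Lgals1 was called in 2 of the 10 fits with 1 library left out, where the highest adjusted p was 0.221 without CD25- PP iKO library 2.

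Il10 averaged 140.0 ± 22.3 CPM (SD, n = 2) in iHET CD25- PP and 318 ± 18.8 CPM (n = 3) in iHET colonic Tregs, and 162 ± 5.04 and 282 ± 59.0 CPM in the iKO groups. Against the CD25- PP libraries the colonic ones were higher throughout. The log2 fold change was 1.18 in iHET (SE 0.173, edgeR adjusted p = 0.00634) and 0.80 in iKO (SE 0.173, edgeR adjusted p = 0.0389). HET PP Tregs, of the other mouse line and normalized separately, averaged 440 ± 9.29 CPM of Il10 and were not tested against colonic Tregs. In iHET the call was lost without CD25- PP iHET library 2 (adjusted p = 0.0891), and in iKO it held in 5 of the 10 fits with 1 library left out, where the highest adjusted p was 0.216 without CD25- PP iKO library 2. Under the block by genotype and replicate number the edgeR adjusted p of Il10 in iKO was 0.0726. Il1rn averaged 3.98 ± 0.885 and 20.4 ± 9.59 CPM in iHET CD25- PP and colonic Tregs and 10.2 ± 0.930 and 29.8 ± 6.05 CPM in iKO. It was higher in colonic than in CD25- PP Tregs by a log2 fold change of 2.35 in iHET (SE 0.374, edgeR adjusted p = 0.0104). In iKO the value was 1.54 (SE 0.365, edgeR adjusted p = 0.0553), and 3 of the 6 alternative settings called it there. HET PP Tregs averaged 29.5 ± 0.0317 CPM of Il1rn. For Fgl2, Lgals1 and Tgfb1 they averaged 193, 42.5 and 291 CPM, below the means of iHET colonic Tregs. Without CD25- PP iHET library 2 the adjusted p of Il1rn in iHET was 0.134.

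Tgfb1 averaged 280.0 ± 45.7 and 472 ± 61.8 CPM in iHET CD25- PP and colonic Tregs and was higher in the colon (log2 fold change 0.75, standard error 0.154, edgeR adjusted p = 0.0240), with a value of 0.34 in iKO (edgeR adjusted p = 0.249). Without colonic iHET library 3 or CD25- PP iHET library 2 its adjusted p in iHET was 0.0509 and 0.230, and it was 0.0572 under the block by replicate number and 0.101 under that by genotype and number. Itgb8 was the member with the opposite sign. It averaged 101 ± 30.2 CPM (SD, n = 2) in iHET CD25- PP and 36.9 ± 8.98 CPM (n = 3) in iHET colonic Tregs, and 128 ± 3.45 and 35.1 ± 9.08 CPM in iKO, and no libraries overlapped. Itgb8 fell by 1.45 on the log2 scale in iHET (SE 0.266, edgeR adjusted p = 0.0127) and by 1.86 in iKO (SE 0.266, edgeR adjusted p = 0.00737). The adjusted p was 0.0838 in iHET without CD25- PP iHET library 1, and 0.0567 and 0.0572 in iKO without CD25- PP iKO library 1 or 2. The ratio of Itgb8 to Tgfb1 in FPKM was 0.146 to 0.185 in the 4 CD25- PP libraries and 0.0244 to 0.0485 in the 6 colonic libraries.

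Lrrc32, Ebi3 and Areg did not pass the test between organs. Lrrc32 had log2 fold changes of 0.24 in iHET (95% confidence interval -0.35 to 0.82) and 0.10 in iKO (-0.49 to 0.68). Ebi3 had 0.97 (edgeR adjusted p = 0.162) and 0.69 (0.316), with every colonic library above every CD25- PP library of its genotype. Areg had 1.07 (edgeR adjusted p = 0.251) and 0.54 (0.579). Without CD25- PP iHET library 1, which leaves a single library in that group, the value in iHET was 2.59.

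Other cell types differed between organs too. Of the 8 tested myeloid genes, 2 were higher in iHET and 1 in iKO colonic Tregs. Of 4 mast cell genes, only Kit was called higher in each. The log2 fold changes of Fcer1a, Mcpt1 and Mcpt2 were -0.75, -0.051 and 0.0023 in iHET and -1.89, -0.25 and -0.58 in iKO. Of 6 genes of B and plasma cells, 1 was higher in iHET. Of 6 genes of stroma and endothelium, 3 were higher in iKO, and their sum was 109 to 180 CPM in CD25- PP and 182 to 1083 CPM in colonic libraries. Lgals1, Fgl2, Il1rn and Tgfb1 are also expressed by such cells, and the part of these cells was not tested. Of the 8 genes of Treg identity, 3 were higher (Foxp3, Il2ra and Ctla4) and 1 lower in iHET, and 1 was higher (Il2ra) and 1 lower in iKO. Immediate early genes of cell dissociation summed to 12037 to 17296 CPM in CD25- PP and 15453 to 23504 CPM in colonic libraries, with 3 of 10 higher in iHET and 1 in iKO. The part of these shifts in the members' values was not tested.

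**Figure D4:**
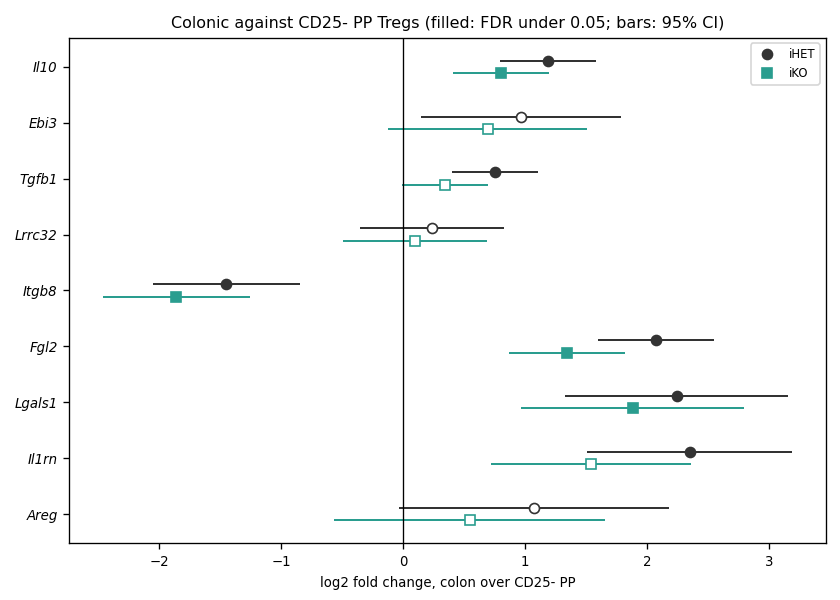
Log2 fold change of the 9 tested genes between colonic and CD25- PP Tregs in iHET (circles) and iKO (squares) mice, with bars for the 95% confidence interval and filled symbols for an FDR under 0.05. Fgl2 (2.07 and 1.34), Lgals1 (2.24 and 1.88) and Il10 (1.18 and 0.80) lie right of 0 and Itgb8 (-1.45 and -1.86) left of 0 in both genotypes, and each iKO value lies left of its iHET value.

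Among the related genes, 21 of 88 tested were higher and 3 lower in colonic than in CD25- PP Tregs of iHET mice, against 4.22% and 2.23% of all genes. In iKO 13 were higher and 3 lower, against 2.48% and 1.59% of all genes. Of 14 genes for TGF-beta activation and storage, 5 were higher in iHET (median log2 fold change 0.85) and 2 in iKO (median 0.69). Itgb5, another integrin chain that pairs with Itgav, rose by 2.57 in iHET (edgeR adjusted p = 0.000558) and 2.58 in iKO (0.000595), and Furin, the protease that cleaves the TGF-beta precursor, by 2.06 (0.00150) and 1.40 (0.0102). Thbs1 and Itgb1 were higher in iHET, by 3.92 (edgeR adjusted p = 0.0127) and 1.05 (0.0289). Of 12 receptor and signaling genes, Smurf2 was lower in both genotypes, with -0.96 in iHET (edgeR adjusted p = 0.0140) and -0.95 in iKO (0.0227).

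Il10ra was higher in the colon by 1.88 in iHET (edgeR adjusted p = 0.00247) and 1.51 in iKO (0.00868), and Il12rb1, a receptor chain for IL-12 and IL-23, by 2.11 (0.000587) and 1.34 (0.00504). Stat3, which carries the IL-10 signal, was higher in iHET by 0.82 (edgeR adjusted p = 0.0109). Of the 12 transcription factors known to act on Il10, 6 were higher and 1 lower in iHET and 4 higher and 2 lower in iKO. Rbpj rose by 1.07 in iHET (edgeR adjusted p = 0.00692) and 0.89 in iKO (0.0202). Irf4 rose by 1.61 in iHET (edgeR adjusted p = 0.00872) and 1.09 in iKO (0.0468), and Bhlhe40 by 1.71 (0.00877) and 1.22 (0.0411). Egr2 was lower in both, with -1.65 in iHET (edgeR adjusted p = 0.0217) and -1.79 in iKO (0.0227). Maf, an activator of Il10, was called lower in iKO only, with -0.80 (edgeR adjusted p = 0.0205).

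In the IL-1 family, 4 of 11 tested genes were higher in iHET and 2 in iKO (medians 1.42 and 1.03). Il1rl1, the IL-33 receptor ST2, rose by 2.99 in iHET (edgeR adjusted p = 0.00171) and 2.42 in iKO (0.00523), Il1r1 by 1.95 (0.0254) and 1.70 (0.0495) and Il18rap by 1.42 in iHET (0.0173). Il1b was called higher in iHET, with a mean of 26.3 ± 36.8 CPM (SD, n = 3) in colonic Tregs, where the SD exceeds the mean, against 0.0344 ± 0.0486 CPM (n = 2) in CD25- PP Tregs, under the level of 3 counts. Of the other galectins, Lgals3 was higher in both genotypes, by 3.15 (edgeR adjusted p = 0.0382) and 4.56 (0.0187), as was Lgals7, by 2.76 (0.0218) and 2.81 (0.0277). Lgals2, with a mean of 9.68 ± 13.5 CPM in CD25- PP and 0 counts in colonic iHET Tregs, was called lower in iHET. Of the EGF family genes Rhbdf2, a cofactor of the protease that sheds amphiregulin, was higher in iHET by 1.04 (edgeR adjusted p = 0.0119), and Btc, another EGF family ligand, in iKO by 3.05 (0.0432), where its means were 0.213 ± 0.0432 and 2.00 ± 1.13 CPM. None of the 3 tested genes of the list related to FGL2 was called.

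Whether the genotype difference depended on the organ was tested as an interaction over the same 10 libraries. None of the 9 members and none of 18626 genes (0%) was called by edgeR, with 622 genes (3.34%) and 1 member at an unadjusted p under 0.05 and 2 genes called by DESeq2. All 9 estimates were negative, that is the iKO difference was lower in the colon, with a median of -0.41 against -0.0002 over all genes. The members share the 10 libraries, and CD25- PP iHET library 2 and colonic iHET library 3 entered each estimate. Without the former, the estimates of Areg, Ebi3 and Lrrc32 turned positive (0.20, 0.03 and 0.25), and without the latter those of Ebi3 and Lgals1 did (0.24 and 0.27). Without colonic iHET library 1 the estimate of Lrrc32 was 0.07. Fgl2 had the lowest p of the members, with an estimate of -0.73 (SE 0.295). Its edgeR quasi-likelihood p was 0.0334 and its adjusted p was 1.

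Likeness was described by Pearson's r of log2 CPM over the 10 inducible libraries after subtracting each group's mean, so that it reflects variation among mice of a group. These residuals share library depth and normalization, and the best of 18626 genes were taken. For Il10 the most similar genes were Irs1 (r = 0.975), Susd4 (r = 0.953) and Ccm2 (r = 0.947). For Ebi3 they were Tmem179b (r = 0.986), Ces2c (r = 0.980) and Acot7 (r = 0.978), for Lrrc32 Cdip1 (r = 0.972), Wbp2 (r = 0.969) and Gm16372 (r = 0.968), and for Itgb8 Gm47483 (r = 0.979), Gm48933 (r = 0.971) and Daam2 (r = 0.970). No other member was among the 3 most similar genes of these 4.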

How the data were processed

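Sorted Tregs were lysed in Trizol, and low-input RNA-seq libraries were made with the SMARTer v4 kit. The authors trimmed reads, aligned them with STAR to GRCm38 (mm10) without multi-mapped reads, counted them per gene with featureCounts at default settings, which ignore strand, and, for the inducible line, used forward reads only. The deposited values are whole-number counts without normalization. Reads carry no molecular identifiers, so the floor of 3 counts covers counting error only.

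Symbols, positions and exon lengths came from GENCODE M21, on the same build as the M22 that the study names. Of the listed IDs, 53706 and 55394 matched. The 10 members and the lists of related genes and markers were chosen with earlier results of these data known. Named were all members, the called genes of each list (the 4 with the lowest p where more were called), Junb, and the 3 genes most similar to Il10 and to each member called between genotypes. A gene of the lists that this rule names is not reported here.

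Tests used genes that reached 1 CPM in 2 or more libraries (3 in the colonic comparison) and were made with edgeR 4.0.16 (R 4.3.3, limma 3.58.1): TMM, quasi-likelihood fit, prior count of 1 and Benjamini-Hochberg adjustment over all genes tested, called at an FDR of 0.05. PP and CD25- PP Tregs were fitted on their own 4 libraries, colonic Tregs on 6 with the mouse number as a stand-in for cage, and organs and interaction on all 10 inducible libraries. Standard errors and 95% confidence intervals are those of the coefficient. Sums over marker lists are CPM without TMM. Alternatives were the exact and likelihood ratio tests of the study, DESeq2 1.42.0, 2 other normalizations, 2 other filters, replicate blocks and leaving out each library. Leaving out a library from a group of 2 leaves 1, so that the spread in such a fit comes from the other groups. The tests were also run on simulated counts with changes larger than most of the members' differences between genotypes, and no result here rests on that run. Figures used Python 3.11.15 and matplotlib 3.10.9. Flow cytometry was not analysed here, and the sort gate for PP Tregs is given only in part.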

Additional observations from a re-analysis of the deposited data

Results flagged for a closer look

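Itgb8 had a log2 fold change of -0.88 in PP Tregs and 0.33 in CD25- PP Tregs, with each JunB-deleted library on one side of its controls in the former and on the other side in the latter. The PP and CD25- PP libraries were normalized separately and differ in mouse line, timing of deletion and sort gate, and the difference between the values was not tested.

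Il12a likewise had fewer counts in every KO library of PP Tregs than in any HET library, with at most 6 counts in a library, and more counts in every iKO library of CD25- PP Tregs than in any iHET library, where the highest count was 45. This difference was not tested either. Without the filter on low counts, Il12a had a log2 fold change of 4.76 in CD25- PP Tregs with an edgeR adjusted p of 0.0192, and 45 of its 50 counts in those 4 libraries came from a single mouse.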

How the results depend on the processing

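In PP Tregs, 409 genes were called, against 689 with the study's exact test, 696 with DESeq2, 1305 without a filter on low counts and 54 to 313 without single libraries. In CD25- PP Tregs the number was 0, against 43, 35 and 232 under the same settings, 1 with at least 10 counts in every library, 1 in the fit of 10 libraries and 0 to 128 without single libraries. In colonic Tregs it was 1, against 25 with the likelihood ratio test, 42 with DESeq2, 24 without a filter and 0 to 8 without single libraries. Between organs, 1201 genes in iHET and 758 in iKO became 2504 and 2233 with DESeq2, 2848 and 2348 without a filter, and 143 to 1700 and 79 to 1096 without single libraries. The interaction, with 0 calls, gave 2 with DESeq2, 282 without a filter and 0 without any single library.

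The labels do not say that a replicate number marks a shared mouse or cage, but in the inducible groups number 1 is male and the others are female, so that a block by number is in part one by sex, which the fits of CD25- PP Tregs and of organs leave out. Deviations of same-numbered libraries correlated at 0.06, 0.29 and -0.09 in colonic Tregs, where those of differently numbered libraries correlated at -0.27 to 0.18. In PP and CD25- PP Tregs same-numbered libraries correlated at 0.10. With 2 libraries a group, differently numbered ones there have the same value with the opposite sign by construction. With the replicate block, 1015 genes were called in PP Tregs, among them Il10 (edgeR adjusted p = 0.00478), Tgfb1 (0.00247), Areg (0.0180) and Il1rn (0.00135), and 0 in CD25- PP Tregs; without it, 1 in colonic Tregs. Between organs, the replicate block by number gave 900 genes in iHET and 430 in iKO, and the block by genotype and number 345 and 185, where Tgfb1 in iHET (0.101), Il10 in iKO (0.0726) and Fgl2 in iKO (0.0680) lost their calls.

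Of the values of the 9 members under other settings, 339 kept direction and side of the threshold, 22 gained a call, 5 lost one and 3 reversed: Lgals1 in PP Tregs without a filter (0.0046), and the interactions of Ebi3 (0.10) and Lgals1 (0.31) under the block by genotype and number. Without single libraries, 27 values of the members reversed, with adjusted p of at least 0.482, and 28 lost a call and 5 gained one. The ranges were -0.31 to 0.48 for Fgl2 and -0.071 to 0.076 for Lgals1 in PP Tregs; -0.25 to 2.01 for Areg, -0.075 to 0.46 for Fgl2 and -0.15 to 0.78 for Lrrc32 in CD25- PP Tregs; -0.18 to 0.090 for Areg, -0.42 to 0.10 for Itgb8, -0.77 to 0.073 for Lgals1 and -0.060 to 0.27 for Lrrc32 in colonic Tregs; -0.15 to 0.76 and -0.0048 to 0.20 for Lrrc32 between organs in iHET and iKO; and, for the interaction, -2.05 to 0.20 for Areg, -0.65 to 0.24 for Ebi3, -0.70 to 0.27 for Lgals1 and -0.66 to 0.25 for Lrrc32. The causes were not tested. With 2 or 3 mice a group, changes of the size seen for Il10 in CD25- PP and colonic Tregs could not be resolved. CPM without TMM moved 6 of 60 mean levels by more than their SD.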
